A study of Homo sapiens with 12 samples.

Results

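The genes described here are the DNA repair gene families measured in RCC4 cells, an established line from human clear cell renal carcinoma. They were chosen by name: every symbol of the RAD, FANC, XRCC, ERCC, MSH, MLH and PMS series, together with BRCA1, BARD1, BLM, WRN, ATM, ATR, CHEK1, CHEK2, EXO1, UNG, OGG1, APEX1 and PARP1. This gave 58 of the 11963 genes with a usable probe set. The rule uses names alone, and each gene is read by the probe set with its highest mean. Expression was read on 12 Affymetrix arrays, 3 in each of 4 groups. All cells received siRNA for 2 days, either non-targeting (siNT) or directed at YAP (siYAP). They then spent 7 hours with erastin at 1 µM or with its vehicle, DMSO. YAP is a transcriptional co-activator held in check by the Hippo pathway, and erastin blocks cystine uptake and can trigger ferroptosis. The groups are therefore siNT with DMSO, siYAP with DMSO, siNT with erastin and siYAP with erastin, all in a single cell line, and the submitters call the 3 samples of a group biological triplicates. The sources used here do not state how many siRNAs were used or how separately the triplicates were grown. The p-values then reflect only the spread between the 3 samples within a group, pooled over the 4 groups. This spread, which may be technical, is also drawn by the fit toward that of all genes.

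Cells mend DNA by several routes. Homologous recombination copies an intact sister strand and runs mainly in S and G2 phase, while end joining ligates broken ends directly in any phase. The Fanconi anaemia proteins release crosslinked strands, mismatch repair corrects replication errors, and the excision pathways cut out damaged bases or short stretches of a strand. Checkpoint kinases halt the cell cycle while this happens. Many recombination, crosslink and mismatch repair genes are transcribed most as cells enter S phase, where E2F transcription factors act on their promoters, whereas excision and end joining genes are generally transcribed at all times.

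The promoters of 4 members are shown because BLM, EXO1 and RAD51AP1 were among the largest falls after YAP silencing and FANCF was the largest rise, and each holds letters resembling an E2F site. Each sequence runs 5′ to 3′ on the gene's strand, from 250 bases before to 30 bases after a transcript start that RefSeq lists for the gene (GRCh38.p14). For BLM, RAD51AP1 and FANCF this is also the start of the gene record, and for EXO1 it lies 218 bases inside the record. Capitals mark every match, on either strand, to an E2F-like motif (the letters TTCCCGC or the variants spelled TTCGCGC or TTGGCGC or TTGCCGC) or to the letters TTTGAA or CCAAT, none of which overlap in these windows. A match to TTCCCGC on the opposite strand reads GCGGGAA, and a match to CCAAT reads ATTGG. The BLM window lies at chr15:90717096-90717375 (plus strand), that of EXO1 at chr1:241847954-241848233 (plus), that of RAD51AP1 at chr12:4538640-4538919 (plus) and that of FANCF at chr11:22625794-22626073 (minus).
BLM: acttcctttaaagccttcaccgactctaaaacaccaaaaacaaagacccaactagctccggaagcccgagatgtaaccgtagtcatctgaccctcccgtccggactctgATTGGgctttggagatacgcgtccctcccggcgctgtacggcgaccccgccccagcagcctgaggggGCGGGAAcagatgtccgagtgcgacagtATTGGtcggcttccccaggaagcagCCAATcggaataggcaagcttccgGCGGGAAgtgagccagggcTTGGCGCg
EXO1: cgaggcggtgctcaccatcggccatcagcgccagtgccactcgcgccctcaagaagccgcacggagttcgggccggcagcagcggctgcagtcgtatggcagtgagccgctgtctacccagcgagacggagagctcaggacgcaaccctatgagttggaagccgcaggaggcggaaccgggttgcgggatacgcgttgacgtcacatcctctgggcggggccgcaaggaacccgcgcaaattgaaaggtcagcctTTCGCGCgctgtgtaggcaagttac
RAD51AP1: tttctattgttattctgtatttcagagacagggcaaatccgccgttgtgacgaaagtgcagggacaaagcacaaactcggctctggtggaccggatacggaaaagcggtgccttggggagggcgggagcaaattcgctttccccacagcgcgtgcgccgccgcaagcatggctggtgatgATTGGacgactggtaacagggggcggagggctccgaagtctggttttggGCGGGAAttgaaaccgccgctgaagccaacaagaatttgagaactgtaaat
FANCF: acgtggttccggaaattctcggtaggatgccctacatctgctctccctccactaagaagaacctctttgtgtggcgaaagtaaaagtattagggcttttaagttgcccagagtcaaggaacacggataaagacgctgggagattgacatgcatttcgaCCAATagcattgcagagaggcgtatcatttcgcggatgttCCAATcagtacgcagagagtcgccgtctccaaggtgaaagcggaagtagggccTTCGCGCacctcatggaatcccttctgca
Counting from that transcript start as 0, BLM holds TTCCCGC at -74 to -68 and at 3 to 9, TTGGCGC at 22 to 28, and 3 matches to CCAAT. EXO1 holds TTCGCGC at 5 to 11, and RAD51AP1 holds TTCCCGC at -21 to -15. FANCF, which rose, also holds an E2F-like match, TTCGCGC at 1 to 7, and 2 matches to CCAAT. A match describes letters in the window and does not show that a factor binds there.

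YAP1 itself was measured first. It lay between 8.47 and 8.65 on the siNT arrays (log2 RMA values, the scale of every level below). With DMSO the siYAP arrays read 4.18, 4.88 and 4.81, and with erastin 4.68, 6.21 and 4.90. All 6 siYAP arrays were thus below all 6 siNT arrays, and the array at 6.21 kept more YAP1 than the other siYAP arrays. RMA, the authors' normalization, sets the arrays to a common distribution, so array medians ran only from 6.49 to 6.52 and a shift in total RNA is hidden. In a bulk sample, fewer cells in a state and less RNA per cell cannot be told apart. Of 9 renal tubule markers, PAX8 lay between 10.40 and 10.64 and CDH6 between 11.79 and 12.14 on the arrays. CDH1, AQP1 and CUBN lay below 5.38, the 30th percentile of gene means. After silencing in DMSO 2 of the 9 were lower and 4 higher (limma, adjusted p under 0.05), and EPCAM averaged 7.86 in siNT and 8.90 in siYAP. Endothelial markers averaged 4.30 to 4.61 per array. Fibroblast markers averaged 5.21 to 5.60, with 3 of 5 below that limit, COL1A1 between 7.26 and 7.66 and ACTA2 between 7.36 and 8.08. Of the members, 8 had a mean below the same limit, where fold changes are compressed and little can be read: RAD51B, XRCC3, ERCC4, ERCC6, MSH4, RAD21L1, PMS2P2 and PMS2P4. None of these 8 was called in any comparison. The number of arrays limits the precision, and the median 95% interval of a member's log2 fold change after silencing reached 0.168 to either side.

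YAP silencing in DMSO lowered 24 of the 58 members and raised 4, and 30 did not pass the test (limma, adjusted p under 0.05 over all 11963 genes). Of all genes, 15.6% were called lower and 18.1% higher in this comparison, so the members' share of lower calls, 41.4%, was above the background and their share of higher calls, 6.90%, was below it. The median member changed by -0.15 on the log2 scale, against 0.02 over all genes. A fall of at least 2-fold was called for 8 members: BLM, EXO1, FANCI, RAD51AP1, BRCA1, BARD1, ERCC6L and UNG. Such falls made up 1.78% of all genes. In 27 members every siYAP array lay below every siNT array, and in 6 every siYAP array lay above, where 20.7% and 24.7% of all genes did so. The lower members were mostly those of recombination, crosslink repair and the checkpoint. Base excision and single-strand break repair held 2 lower of 5, a share near that of all members. Nucleotide excision repair held 1 of 8 and end joining 0 of 3.

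**Figure D1:**
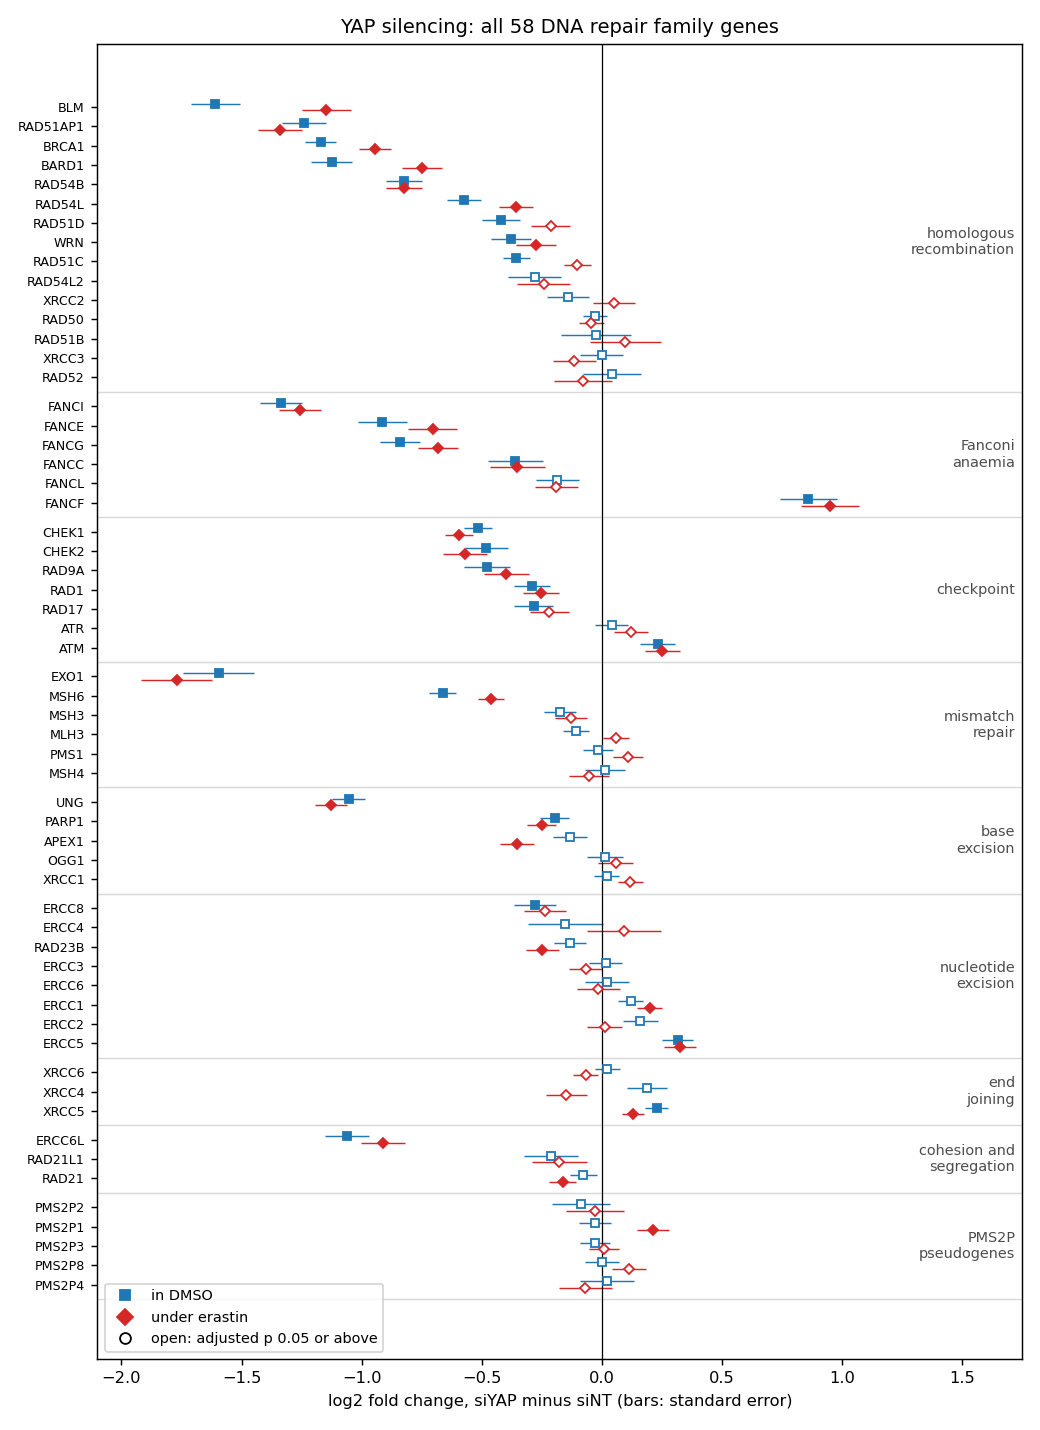
Each row is a member, grouped by repair role, and the horizontal axis is its log2 fold change (siYAP minus siNT) in DMSO and under erastin, with bars for the standard error (3 arrays per group). The longest falls are BLM at -1.61 and EXO1 at -1.60 in DMSO and EXO1 at -1.77 under erastin, and FANCF stands alone among the rises at 0.86 and 0.95.

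Homologous recombination held the most lower members, with 9 of 15 called lower in DMSO, none called higher and a median of -0.38. Of all genes, 15.6% were lower and 18.1% higher in this comparison. BLM, the helicase mutated in Bloom syndrome, stood at 7.32, 7.33 and 7.26 on the siNT arrays with DMSO and at 5.54, 5.72 and 5.82 on the matching siYAP arrays. Under erastin its siNT arrays read 7.09, 7.09 and 6.98 and its siYAP arrays 5.73, 6.17 and 5.82. The groups did not overlap in either medium. With erastin the siYAP array with the most YAP1 was also the highest for BLM in its group, but with DMSO it was not. BLM fell by 1.61 (SE 0.102, 3.05-fold, adjusted p = 1.63e-07) in DMSO and by 1.15 (2.22-fold, adjusted p = 2.38e-06) under erastin.

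RAD51AP1, an accessory factor of strand pairing, read 10.36, 10.28 and 10.29 in siNT and 8.93, 9.02 and 9.25 in siYAP with DMSO. With erastin the siNT arrays were at 10.32, 10.30 and 10.48 and the siYAP arrays at 8.94, 9.18 and 8.96. Both media thus showed siYAP arrays more than 1 log2 unit below siNT arrays, and the fitted falls were 1.24 (2.37-fold, adjusted p = 4.78e-07) and 1.34 (2.53-fold, adjusted p = 3.05e-07). BRCA1, the ubiquitin ligase subunit that promotes end resection, was at 8.45, 8.43 and 8.38 in siNT and at 7.16, 7.22 and 7.35 in siYAP with DMSO. Its erastin arrays read 8.31, 8.38 and 8.33 in siNT and 7.30, 7.51 and 7.37 in siYAP. The siNT arrays of BRCA1 lay close together in each medium and all siYAP arrays were lower, by 1.17 in DMSO (2.25-fold, adjusted p = 6.99e-08) and 0.94 under erastin (1.92-fold, adjusted p = 3.66e-07).

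BARD1, the partner that BRCA1 needs for its ligase activity, behaved alike in direction. Its siNT arrays with DMSO read 7.98, 8.16 and 7.97 and its siYAP arrays 6.87, 6.82 and 7.04. With erastin they read 7.66, 7.67 and 7.61 in siNT and 6.77, 7.07 and 6.86 in siYAP. BARD1 fell by 1.13 in DMSO (2.18-fold, adjusted p = 6.04e-07) and by 0.75 under erastin (1.68-fold, adjusted p = 1.78e-05), and its siNT arrays with erastin were all below its siNT arrays with DMSO. The DNA translocases RAD54B and RAD54L, which remodel recombination intermediates, fell by 0.82 and 0.57 in DMSO and by 0.82 and 0.36 under erastin. WRN, the Werner syndrome helicase, fell by 0.38 and 0.27. RAD51C and RAD51D, which support recombination as parts of larger complexes, fell by 0.36 (adjusted p = 0.000283) and 0.42 (adjusted p = 0.00109) in DMSO, and under erastin their changes of -0.10 (adjusted p = 0.198) and -0.21 (adjusted p = 0.0536) did not pass.

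The rest of the recombination group did not pass in either medium. RAD50, a subunit of the complex that first binds a break, changed by -0.03 in DMSO (95% interval -0.14 to 0.08) and by -0.04 under erastin (-0.15 to 0.07), which leaves little room for a change. RAD52, which anneals single strands, changed by 0.04 (-0.22 to 0.30) and -0.08 (-0.34 to 0.18). RAD54L2, XRCC2, XRCC3 and RAD51B ranged from -0.28 to 0.10 over both media, and the last pair lay below the dim limit. Members were placed in role groups from a list of names, so a place in a group does not show a core role in that pathway.

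**Figure D2:**
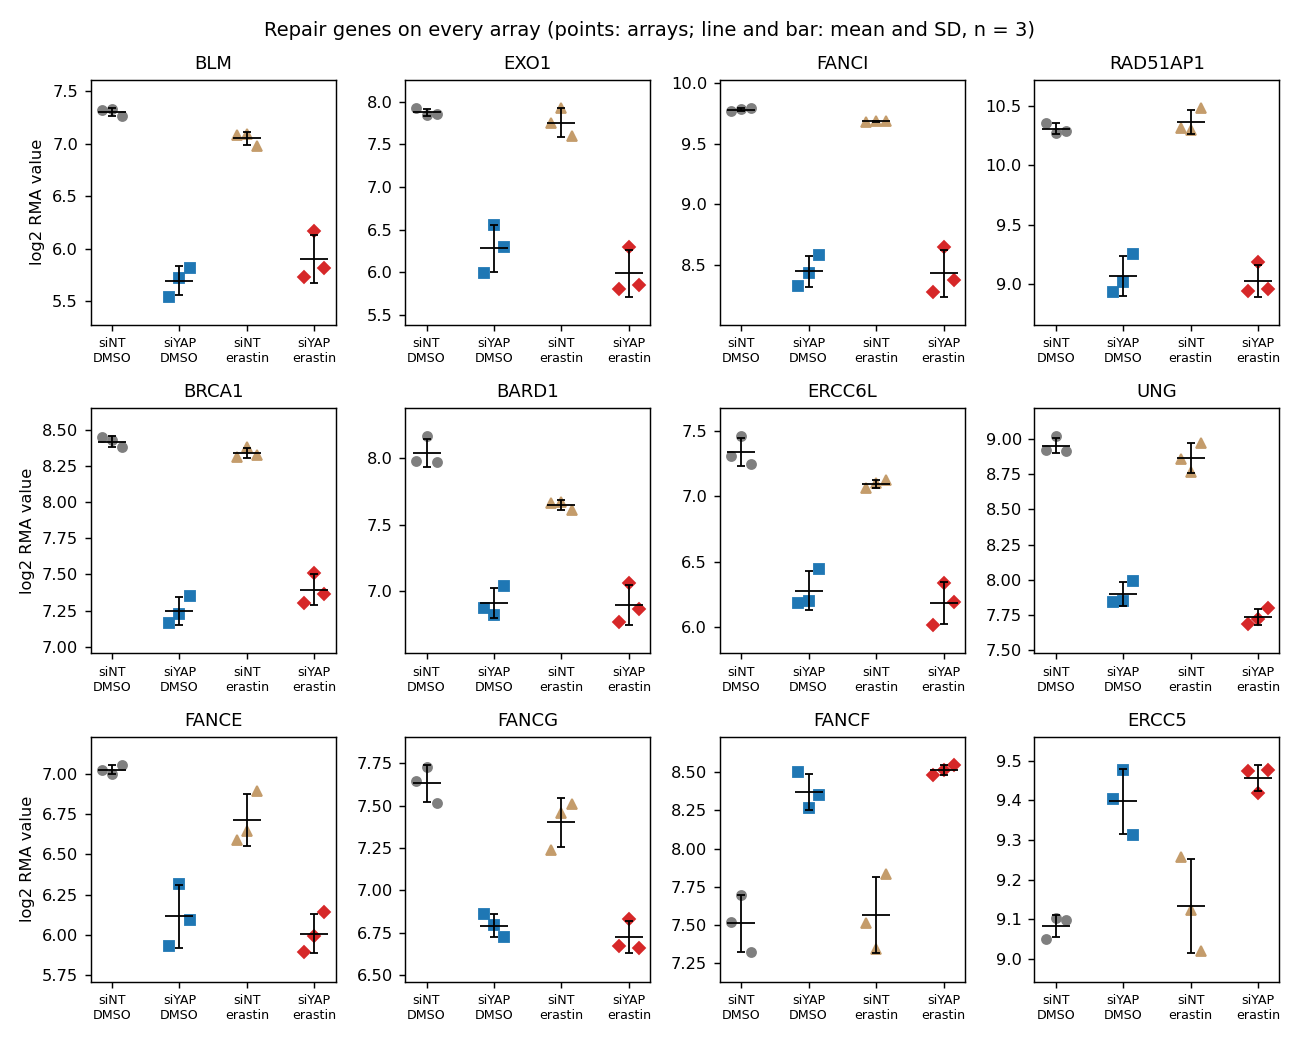
Each panel is a gene, with the log2 RMA value of every array as a point and the mean and SD of each group (3 arrays) as a line and bar. BLM, EXO1, BRCA1 and the other fallen genes sit lower in all siYAP arrays than in the siNT arrays of the same medium, and FANCF and ERCC5 sit higher.

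Within the Fanconi anaemia group the members moved in opposite directions. In each medium 4 of 6 were lower and 1 was higher. Of all genes, 15.6% and 14.8% were lower in DMSO and under erastin, and 18.1% and 20% were higher. FANCI, which is monoubiquitinated together with FANCD2 at a crosslink, read 9.77, 9.78 and 9.80 in siNT and 8.33, 8.43 and 8.58 in siYAP with DMSO. The erastin arrays stood at 9.69 for all siNT samples and at 8.28, 8.65 and 8.37 for the siYAP samples. The falls of FANCI were 1.34 (2.52-fold, adjusted p = 2.21e-07) and 1.26 (2.39-fold, adjusted p = 3.85e-07), several times the spread within any group.

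FANCE and FANCG, subunits of the Fanconi core complex that ubiquitinates FANCI and FANCD2, were lower as well. FANCE read 7.03, 7.00 and 7.06 in siNT and 5.93, 6.32 and 6.09 in siYAP with DMSO, then 6.59, 6.65 and 6.90 in siNT and 5.89, 5.99 and 6.14 in siYAP with erastin. FANCG read 7.65, 7.73 and 7.51 against 6.86, 6.79 and 6.72 with DMSO, and 7.24, 7.46 and 7.51 against 6.67, 6.83 and 6.66 with erastin. No array of one siRNA overlapped the other for either gene, and FANCE fell by 0.91 (adjusted p = 1.67e-05) and 0.70 (adjusted p = 0.000146), FANCG by 0.84 (adjusted p = 5.56e-06) and 0.68 (adjusted p = 3.39e-05). FANCC, a further core subunit, fell by 0.36 (adjusted p = 0.0278) and 0.35 (adjusted p = 0.03). FANCL, the ubiquitin ligase subunit of the core, changed by -0.19 in both media (adjusted p = 0.137 and 0.127) and did not pass.

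FANCF, an adaptor of the same core complex, went the other way. Its siNT arrays with DMSO read 7.52, 7.70 and 7.32 and its siYAP arrays 8.50, 8.27 and 8.35. With erastin the siNT arrays read 7.51, 7.34 and 7.84 and the siYAP arrays 8.48, 8.52 and 8.55. Every siYAP array was above every siNT array in both media, and FANCF rose by 0.86 (SE 0.119, 1.81-fold, adjusted p = 9.87e-05) and 0.95 (1.93-fold, adjusted p = 4.18e-05). It was the largest rise among the members in each comparison. A single probe set measured FANCF, and the same holds for BLM, EXO1, RAD51AP1, BARD1, ERCC6L and UNG.

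Checkpoint signalling was mostly lower by smaller amounts. With DMSO 5 of 7 members were lower and 1 was higher, and with erastin 4 were lower and 1 higher. The shares of all genes were 15.6% lower and 18.1% higher with DMSO, and 14.8% and 20% with erastin. CHEK1, the kinase that ATR activates at stalled forks, read 9.05, 8.97 and 9.03 in siNT and 8.47, 8.48 and 8.55 in siYAP with DMSO. Its erastin arrays read 8.88, 8.91 and 9.04 in siNT and 8.38, 8.39 and 8.28 in siYAP. These falls of 0.52 (adjusted p = 1.78e-05) and 0.59 (adjusted p = 5.43e-06) were several times the spread within a group. CHEK2, the kinase downstream of ATM, fell by 0.48 and 0.57, and its groups did not overlap in either medium. RAD9A and RAD1, subunits of the sliding clamp that marks damage, fell by 0.48 and 0.29 in DMSO and by 0.40 and 0.25 under erastin. The erastin call of RAD1 was lost without siNT array 3, siYAP array 1 or siYAP array 3 (adjusted p = 0.0625 to 0.0681), and another of its probe sets changed by -0.12 there (adjusted p = 0.244). RAD17, which loads that clamp, fell by 0.28 (adjusted p = 0.0154) in DMSO, and its change of -0.22 under erastin did not pass (adjusted p = 0.0518).

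The apical kinases ATR and ATM did not follow CHEK1 and CHEK2. ATR, which senses single-stranded DNA, changed by 0.04 (95% interval -0.11 to 0.19) in DMSO and 0.12 (-0.03 to 0.27) under erastin. ATM, which senses double-strand breaks, read 7.50, 7.43 and 7.57 in siNT and 7.81, 7.65 and 7.75 in siYAP with DMSO, a rise of 0.23 (adjusted p = 0.0259). With erastin it read 7.53, 7.47 and 7.73 against 7.83, 7.88 and 7.79, a rise of 0.25 (adjusted p = 0.0166). The ATM arrays did not overlap in either medium, but the margin was small. Neither of the other ATM probe sets was called, with changes of 0.06 and 0.10 in DMSO and 0.08 and 0.10 under erastin, and the call was lost without siNT array 1 or 2 or siYAP array 1 or 3 in DMSO (adjusted p = 0.0659 to 0.102) and without siNT array 1 or 2 or siYAP array 2 under erastin (0.0592 to 0.0674).

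In mismatch repair 2 of 6 members were lower, in DMSO and again under erastin. With only 6 members this count cannot be told from the 15.6% and 14.8% of all genes called lower. EXO1, the nuclease that removes the strand carrying the mismatch and also resects breaks, read 7.92, 7.85 and 7.85 in siNT and 5.99, 6.55 and 6.30 in siYAP with DMSO. With erastin its arrays read 7.75, 7.93 and 7.60 in siNT and 5.81, 6.30 and 5.86 in siYAP. EXO1 varied more within the siYAP groups than most members, yet its fall of 1.60 in DMSO (SE 0.147, 3.02-fold, adjusted p = 2.94e-06) and of 1.77 under erastin (3.41-fold, adjusted p = 1.36e-06) far exceeded that spread. MSH6, a subunit of the dimer that recognises base mismatches, read 10.04, 10.12 and 10.07 against 9.43, 9.37 and 9.45 with DMSO. The erastin values were 9.83, 9.74 and 9.87 against 9.29, 9.40 and 9.36. MSH6 fell by 0.66 (adjusted p = 1.3e-06) and 0.46 (adjusted p = 2.75e-05). MSH3, the partner in the dimer for larger loops, changed by -0.17 (adjusted p = 0.0595) and -0.13 (adjusted p = 0.163), and MLH3 and PMS1 by -0.11 and -0.02 in DMSO and 0.06 and 0.11 under erastin, none of which passed. Another MLH3 probe set was called lower in DMSO (-0.25, limma, adjusted p = 0.0431), and a further one was not (-0.06, adjusted p = 0.514).

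Base excision and single-strand break repair had 1 large change and several small ones. UNG, the glycosylase that removes uracil from DNA, read 8.92, 9.02 and 8.92 in siNT and 7.84, 7.85 and 7.99 in siYAP with DMSO. Under erastin they were 8.86, 8.76 and 8.97 in siNT and 7.69, 7.72 and 7.80 in siYAP. UNG fell by 1.05 (2.08-fold, adjusted p = 1.64e-07) and 1.13 (2.18-fold, adjusted p = 1.17e-07), and arrays within a group lay close together. PARP1, which binds strand breaks and recruits repair factors, fell by 0.20 (adjusted p = 0.023) and 0.25 (adjusted p = 0.00573), and the DMSO call was lost without siNT array 1 or 2 or siYAP array 1 or 3, with adjusted p up to 0.0942. APEX1, the endonuclease that cuts at abasic sites, fell by 0.35 under erastin (adjusted p = 0.00171) and changed by -0.13 in DMSO (adjusted p = 0.184). OGG1, the 8-oxoguanine glycosylase, changed by 0.01 (95% interval -0.15 to 0.17) and 0.06 (-0.10 to 0.22). The scaffold XRCC1 changed by 0.02 in DMSO and 0.12 under erastin (adjusted p = 0.833 and 0.103).

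In nucleotide excision repair 1 of 8 members was lower and 1 higher in DMSO, and under erastin 1 was lower and 2 were higher, with medians of 0.02 and 0.00. These shares are near those of all genes in both media. ERCC5, the nuclease that cuts on the 3′ side of a lesion, read 9.05, 9.10 and 9.10 in siNT and 9.40, 9.48 and 9.31 in siYAP with DMSO. Erastin arrays of ERCC5 read 9.26, 9.12 and 9.02 against 9.48, 9.42 and 9.48. Both sets were free of overlap, and ERCC5 rose by 0.31 (adjusted p = 0.00227) and 0.32 (adjusted p = 0.00182). ERCC1, part of the nuclease for the 5′ side, rose by 0.20 under erastin (adjusted p = 0.0102) and changed by 0.12 in DMSO (adjusted p = 0.107). ERCC8, which acts where transcription stalls, fell by 0.28 in DMSO (adjusted p = 0.0268) and changed by -0.24 under erastin (adjusted p = 0.0509). The DMSO call of ERCC8 was lost without siNT array 2 (adjusted p = 0.122) or siYAP array 1 (0.0844) or 3 (0.0954). RAD23B, a partner of the lesion sensor XPC, fell by 0.25 under erastin (adjusted p = 0.0119), but another of its probe sets changed by 0.13 there (adjusted p = 0.176). The helicase subunits ERCC2 and ERCC3 lay between -0.07 and 0.16 and did not pass.

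End joining held no lower member in either medium. With only 3 members this cannot be told from the 15.6% and 14.8% of all genes called lower. XRCC5, the larger Ku subunit that caps broken ends, read 11.52, 11.55 and 11.50 in siNT and 11.74, 11.80 and 11.72 in siYAP with DMSO. Under erastin its arrays read 11.52, 11.52 and 11.49 against 11.66, 11.61 and 11.64. The arrays of XRCC5 did not overlap, and it rose by 0.23 (adjusted p = 0.00195) and 0.13 (adjusted p = 0.049), the second of which was lost when any single array of that comparison was left out. Its partner XRCC6 changed by 0.02 (95% interval -0.09 to 0.14) and -0.07 (-0.18 to 0.05). XRCC4, the scaffold of the ligase, changed by 0.19 (adjusted p = 0.113) and -0.15 (adjusted p = 0.212).

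Some members carry a family name without a core role in repair. ERCC6L, a helicase that resolves DNA threads between separating chromosomes, read 7.31, 7.46 and 7.25 in siNT and 6.19, 6.20 and 6.45 in siYAP with DMSO. With erastin it read 7.06, 7.10 and 7.12 against 6.02, 6.34 and 6.19. ERCC6L fell by 1.06 (2.08-fold, adjusted p = 1.79e-06) and 0.91 (1.88-fold, adjusted p = 6.52e-06), with no overlap of the arrays. RAD21, the cohesin subunit cleaved at anaphase, changed by -0.08 in DMSO and fell by 0.16 under erastin (adjusted p = 0.0398), a call that leaving out any array of that comparison but siNT array 3 removed. The 5 PMS2P pseudogenes are near-identical copies whose probes cannot be assigned to a single locus with certainty. They lay between -0.09 and 0.21, and only PMS2P1 was called, higher under erastin (0.21, adjusted p = 0.0228).

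The erastin arrays gave a second reading of YAP silencing on 6 separate arrays. Under erastin 23 members were lower, where 14.8% of all genes were, and 6 were higher, where 20% of all genes were. The median member changed by -0.16, against 0.01 over all genes, and 5 members fell at least 2-fold (1.44% of all genes): EXO1, RAD51AP1, FANCI, BLM and UNG. The arrays were free of overlap, with siYAP below siNT, in 28 members, and with siYAP above in 7, where 19.7% and 25.3% of all genes were. In both media 20 members were lower (11.6% of all genes) and 4 were higher (14.6%), the latter being ATM, ERCC5, FANCF and XRCC5. By the probe sets chosen, ERCC8, RAD17, RAD51C and RAD51D were called lower with DMSO alone. APEX1, RAD21 and RAD23B were called lower with erastin alone, and ERCC1 and PMS2P1 were called higher with erastin alone. Other probe sets of ERCC8 (-0.29), RAD17 (-0.33 and -0.35) and RAD51D (-0.45) were called lower under erastin too (limma, adjusted p = 0.00867 to 0.0221). That of RAD51C (-0.21) was not. By the chosen probe sets, no member was called in opposite directions, and 25 were called in neither medium.

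Side by side, the log2 fold changes of the 58 members in the 2 sets correlated at r = 0.956 (Spearman's rho 0.890), and 44 had the same sign. Over all 11963 genes r was 0.907 and rho 0.753, and 8834 had the same sign, a share near that of the members. The sets share no array, but they share the siRNAs, the normalization and the estimate of spread, and genes are not independent replicates. Among the 20 members lower in both, the median change was -0.83 in DMSO and -0.69 under erastin, and 13 of the 20 had the smaller fall under erastin. The test of the difference itself, the interaction, called none of the 58 members and 0% of all genes (limma). At an unadjusted p under 0.05 it held 8 members, against 1179 of all 11963 genes. BLM had the largest difference, a fall smaller by 0.46 under erastin (95% interval 0.15 to 0.78, adjusted p = 0.422), followed by BARD1 at 0.38 (0.12 to 0.64, adjusted p = 0.427) and, in the opposite direction, XRCC4 at -0.33 (-0.59 to -0.08, adjusted p = 0.435). A difference of this size was not called at this number of arrays, and the intervals of 51 of 58 members lay within 0.5 log2 units of 0.

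**Figure D3:**
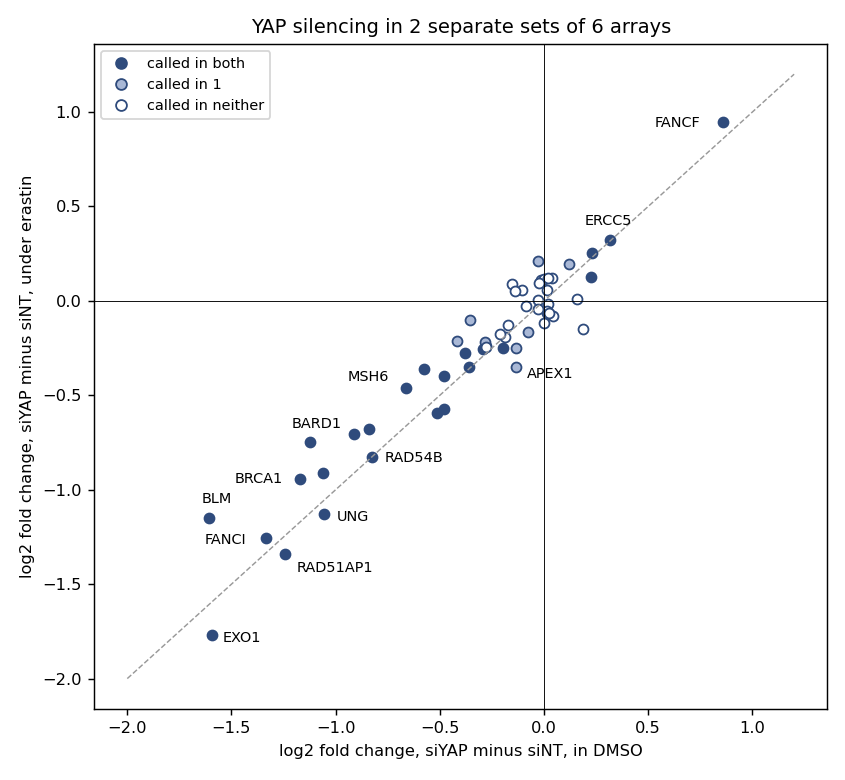
Each point is a member, with its log2 fold change (siYAP minus siNT) in DMSO on the horizontal axis and under erastin on the vertical axis, shaded by the number of comparisons in which it was called, and the dashed line marks equal changes. The 20 members lower in both run from PARP1 at -0.20 to BLM at -1.61 on the horizontal axis, and FANCF at 0.86 and 0.95 lies apart from the remaining rises.

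The siYAP array with erastin that kept the most YAP1 (array 2, at 6.21) was also the highest of its group for 16 of the 20 members lower in both. The siYAP array with DMSO that held the least YAP1 (array 1, at 4.18) was the lowest of its group for 14 of the 20. In that group the array with the most YAP1 (array 2, at 4.88) was the highest for only 6 of the 20, and array 3 (at 4.81) for 12. Members share an array, so these counts are a description without a test, and siNT groups also had an array that ranked highest or lowest for many members: siNT array 3 was lowest for 13 with DMSO and highest for 12 with erastin. Without siYAP array 2 the falls under erastin were 1.28 for BLM, 1.93 for EXO1, 1.37 for FANCI, 1.42 for RAD51AP1 and 1.00 for BRCA1. The counts under erastin were then 23 lower and 3 higher, in place of 6 higher.

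Erastin itself changed no member past the test. In siNT cells 0 of 58 members were called (limma), where 0.752% of all genes were, and 7 had an unadjusted p under 0.05, where 1271 of all 11963 genes did. That count is near the share over all genes. The members' changes ran from -0.39 to 0.14. MSH6 came nearest, with its siNT arrays at 10.04, 10.12 and 10.07 in DMSO and 9.83, 9.74 and 9.87 with erastin, a change of -0.27 (95% interval -0.39 to -0.15, adjusted p = 0.0516). BARD1 changed by -0.39 (-0.58 to -0.21, adjusted p = 0.064) and RAD54L by -0.25 (-0.41 to -0.10, adjusted p = 0.181), followed by FANCE, FANCG, ERCC6L and BLM at -0.32, -0.23, -0.24 and -0.25. The siNT arrays with DMSO serve as controls here and in the silencing comparison in DMSO, so the 2 comparisons are not independent. In 10 members the erastin arrays all lay below the DMSO arrays, and in 0 all above, against 8.51% and 5.89% of all genes. MSH6 and BARD1 passed under some other settings of the analysis, up to 4 members with array weights.

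In siYAP cells erastin again changed 0 of 58 members (0.334% of all genes called), with 10 at an unadjusted p under 0.05, where 1277 of all 11963 genes were, and a lowest adjusted p of 0.316. The changes ran from -0.29, for EXO1, to 0.22, for the pseudogene PMS2P8. The 10 members beyond the unadjusted threshold were, on the lower side, CHEK1 at -0.15, UNG at -0.16, XRCC4 at -0.21, XRCC5 at -0.11 and PARP1 at -0.14, and on the higher side RAD51C at 0.14, BRCA1 at 0.15 and the pseudogenes PMS2P1, PMS2P3 and PMS2P8 at 0.19, 0.15 and 0.22. The erastin arrays lay apart and lower in 9 members and apart and higher in 5, where 10.4% and 12% of all genes did, and both counts lie within a few members of that background. For 56 of 58 members in each erastin comparison the 95% interval lay within 0.5 log2 units of 0.

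**Figure D4:**
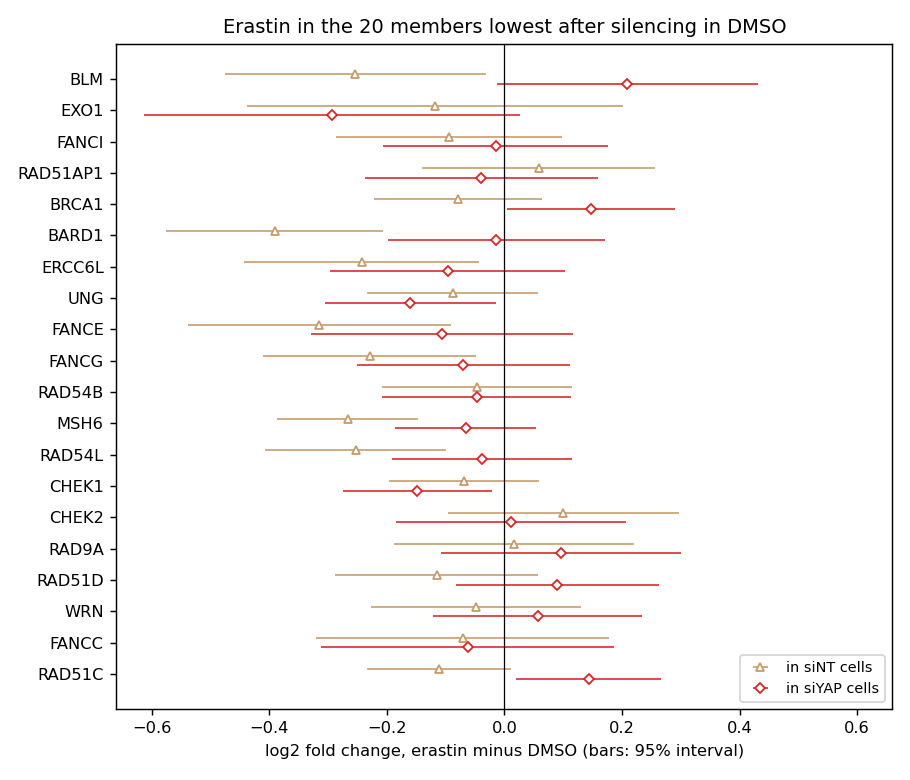
Rows are the 20 members with the lowest change after silencing in DMSO, and the horizontal axis is the log2 fold change, erastin minus DMSO, in siNT and in siYAP cells, with bars for the 95% interval. In siNT cells BARD1 reaches -0.39 and MSH6 -0.27, and no member passed the adjusted test in either cell group.

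Promoter windows of 300 bases, 250 before to 50 after a transcript start, were found for 48 of the 58 members in RefSeq (GRCh38.p14), and the first window listed for each gene was taken. It began at the start of the gene record in 39 of the 48. At least 1 of the 4 E2F-like motifs, on either strand, stood in 28 of the 48 (58.3%), against 1786 of 9562 genes on the arrays (18.7%) and 3564 of all 27305 promoters (13.1%). Of the members lower in both media 14 of 17 held a match (82.4%), and of those called in neither 11 of 21 did (52.4%). The commonest was TTCCCGC, present in 10 of the 17 (58.8%) and in 5 of the 21 (23.8%), against 9.5% of genes on the arrays. The 3 lower members without an E2F-like match were BRCA1, CHEK1 and CHEK2, and the start used in these cells is not known. With any listed window of a gene counted, an alternative added after seeing the data, BRCA1 also held a match. The shares were then 15 of 17 for members lower in both (88.2%), 11 of 21 for those called in neither (52.4%) and 22.6% for genes on the arrays. Of the 3 members higher in both with a window, FANCF alone held a match, and of the 7 called in a single medium RAD23B and RAD51D did. CCAAT stood in 22 of the 48 members (45.8%) and 37.3% of genes on the arrays, and TTTGAA in 4 of the 48 (8.3%) and 11% of genes on the arrays. These shares are descriptions, and no test was made of them.

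**Figure D5:**
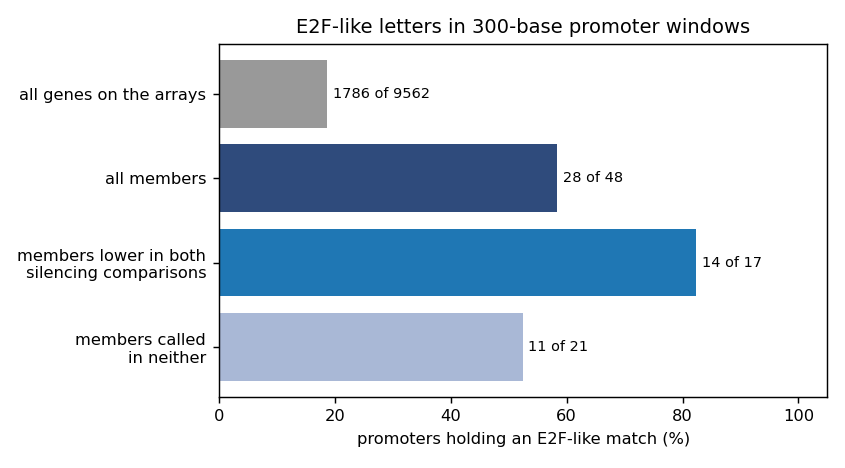
Bars give the percentage of promoter windows with at least 1 E2F-like match for all genes on the arrays, all members, members lower in both silencing comparisons and members called in neither. The members lower in both reach 82.4%, the members called in neither 52.4% and all genes on the arrays 18.7%.

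Other genes of DNA repair moved with the members. Of a list of 64 measured repair genes outside the families, 39 were lower and 9 higher after silencing in DMSO (median -0.30), and 34 were lower and 11 higher under erastin (median -0.22). PCNA stands on this list and also among the proliferation markers below. How many of the 64 stand on an S phase marker list was not counted. The lower shares, 60.9% and 53.1%, stand beside 15.6% and 14.8% of all genes, and the higher shares, 14.1% and 17.2%, are near the 18.1% and 20% of all genes. The largest falls in DMSO were those of POLQ, the polymerase of microhomology-mediated joining (-1.44), MDC1, a scaffold at breaks (-1.30), SMC5, part of a cohesin-like complex (-1.28), and DNA2, a nuclease and helicase of end resection (-1.07). The largest rises were those of REV3L, the catalytic subunit of a translesion polymerase (0.71), NBN, which joins RAD50 at breaks (0.56), GTF2H5, a subunit of the helicase complex of excision repair (0.40), and the glycosylase MPG (0.36). All 8 also passed under erastin in the same direction.

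Markers of proliferating cells moved with the fallen members. Of 12 such markers 12 were lower in DMSO (median -1.10) and 11 under erastin (median -1.09), and MKI67 changed by -0.13 there and did not pass. Their mean per array was 10.45 to 10.50 in siNT and 9.36 to 9.56 in siYAP with DMSO, and 10.29 to 10.39 in siNT and 9.21 to 9.51 in siYAP with erastin. The part of fewer proliferating cells in the falls of the repair genes was not tested. UNG, RAD51AP1, EXO1 and BLM also stand on a commonly used list of S phase markers, and all 4 were lower, with a median of -1.42 in DMSO and -1.24 under erastin. Among the other 54 members 20 were lower and 4 higher in DMSO (median -0.13), and 19 were lower and 6 higher under erastin (median -0.12). The excess of the 3′ over the 5′ ACTB control probes, a sign of RNA breakdown, was 2.68 ± 0.28 (SD, n = 3) in siNT and 2.59 ± 0.95 in siYAP with DMSO, and 2.26 ± 0.69 and 3.54 ± 0.18 with erastin (log2 differences). Its part in the erastin set was not tested.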

How the data were processed

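RNA from RCC4 cells was measured on 12 single-channel Affymetrix arrays. The deposited log2 values were produced by the authors by RMA in Affymetrix Expression Console, according to the submitters' processing notes. The sources used here give no versions, array type or scan dates, and batches could not be checked. RMA subtracts background, equalises the arrays and summarises each probe set.

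Of 22277 probe sets, 19065 carried 1 gene symbol in the platform annotation, and the other probe sets were not named. Each of 11963 genes was represented by its brightest probe set (mean of the 12 arrays). Among the members 25 had several probe sets, and 9 probe sets with several symbols were left out. Some genes of these families are not reported here.

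Groups came from the sample titles. Group means were estimated from all 12 arrays together with limma 3.58.1 in R 4.3.3 (8 residual and 4.17 prior degrees of freedom). Benjamini-Hochberg adjustment ran over all genes in each of 5 comparisons: silencing in each medium, erastin in each cell group, and the interaction. Genes at adjusted p under 0.05 were called, and the fit was tested on simulated data. The members and lists were chosen with earlier results of these data known. Values on every array were given for the 10 largest falls and 4 largest rises in DMSO among called members whose arrays did not overlap. CHEK1 and MSH6 were added to these after their values were seen. In each role group up to 4 members with the largest change and those that did not pass were also named. Motifs were searched in RefSeq promoter windows. Alternatives changed the arrays fitted, scaling, probe set choice, variance model, minimum fold and arrays left out.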

Additional observations from a re-analysis of the deposited data

How the results depend on the processing

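The silencing counts of 24 lower and 4 higher in DMSO and 23 lower and 6 higher under erastin stayed within 1.5 times of these values under the fits of only the 6 arrays compared, other scalings, probe set choices and variance models. A minimum of 1.5-fold left 12 lower and 1 higher in DMSO and 12 lower and 1 higher under erastin, since most calls were smaller than that. Leaving out each array in turn gave 20 to 25 lower and 3 to 4 higher in DMSO, and 19 to 24 lower and 3 to 6 higher under erastin, where the 3 came without siNT array 1 or siYAP array 2 with erastin. For erastin in control cells, called in 0 members, the count was 1 with each array centred on its median, 1 with quantile normalization, 2 with the dimmest 30% of probe sets removed, 2 with a trended and robust variance and 4 with array weights (BARD1, FANCE, FANCG and MSH6), and 0 to 1 with each array left out (1 without siYAP array 2 with erastin). The cause was not tested. Leaving out arrays gave 0 to 0 for erastin after silencing and for the interaction.

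Replicate numbers did not pair the arrays: of 18 same-numbered pairs, correlations ran from -0.42 to 0.19 and 1 was over 0.1. With the replicate block 24 members were lower and 4 higher in DMSO, and 24 lower and 5 higher under erastin, with 0 in the other 3 comparisons. It removed XRCC5 under erastin (adjusted p = 0.0756) and added ERCC8 (adjusted p = 0.0488).

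Over 5565 alternative values of 55 named genes no call became a call in the opposite direction, 56 lost a call and 39 gained one. Of 63 silencing calls 53 were never lost. RAD23B under erastin changed sign, from -0.25 to an uncalled 0.13 with another probe set, and is counted as a lost call. Changes of sign between values that were both uncalled were not counted. Of called members with further probe sets, 9 of 11 in DMSO and 7 of 11 under erastin had another called the same way and 0 the opposite way. ATM and RAD17 in DMSO, and ATM, RAD21, RAD23B and XRCC5 under erastin, had none.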
